A study of Mus musculus with 6 samples.

Results

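Transcripts of 10 genes of extracellular nucleotide signalling were followed in RNA-seq libraries labelled as primary mouse hepatic stellate cells. The set holds the ATP-gated channel genes P2rx4 and P2rx7, the G protein-coupled receptor genes P2ry6, P2ry10, P2ry12, P2ry13 and P2ry14, the adenosine receptor gene Adora2a, and the ectonucleotidase genes Entpd1 and Nt5e. They were selected on their gene symbols from the deposited count table, 10 of 22905 symbols, with the contrast between these libraries already known. The members' differences between the groups are therefore given as a description, with a count of those past the threshold and no p-value for any of them. The study has 2 groups of 3 libraries each, labelled PBS and DOX. Both groups came from BucheKI/KI-Hep mice and both received CCL4, the liver toxin carbon tetrachloride that is widely used to induce fibrosis. The group names differ only by PBS or DOX and share the tag S2W, which the labels do not explain, and the study's design text speaks of over-expressing butyrylcholinesterase (gene Bche) in hepatocytes. The labels do not say what DOX is or how it acts, and they give no age, sex, promoter of the introduced gene or pooling of animals. Mice given DOX without the introduced gene and mice without CCL4 were not analysed here, so an action of DOX itself and one of the enzyme cannot be told apart.

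Injured cells release ATP and UDP, which act on P2X channels and P2Y receptors of neighbouring cells. The enzyme CD39, encoded by Entpd1, strips phosphates from ATP and ADP to give AMP, and CD73, encoded by Nt5e, turns AMP into adenosine, which acts on receptors such as the one encoded by Adora2a. In the liver, these receptors are found on Kupffer cells (the resident macrophages), endothelial cells, lymphocytes and stellate cells, so each transcript here can come from several cell types.

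The members lie at 7 places in the mouse genome (build GRCm38, GENCODE annotation). P2ry14, P2ry13 and P2ry12 stand side by side on the minus strand of chromosome 3, from 59113855 to 59153618, from 59207892 to 59210882 and from 59216272 to 59262871. All 3 are nested within Med12l, a Mediator subunit gene on the opposite strand. Their annotated exons share 0, 0 and 9 bases with exons of Med12l. P2rx7 (122643911 to 122691432) and P2rx4 (122707544 to 122729738) are neighbours on the plus strand of chromosome 5, 16112 bases apart. P2ry10 lies on chromosome X from 107088492 to 107104974, 43953 bases from its paralog P2ry10b, and 3.79% of the 50-base windows of its transcripts are also found in those of P2ry10b. No such window was shared among P2ry12, P2ry13 and P2ry14 or between P2rx4 and P2rx7. P2ry6 lies on chromosome 7 from 100937630 to 100974649, Adora2a on chromosome 10 from 75316877 to 75334784, Entpd1 on chromosome 19 from 40612366 to 40741602 and Nt5e on chromosome 9 from 88327197 to 88372092.

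RefSeq promoters (build GRCm38.p6) were found for 8 of the 10 members, with 14 annotated starts in all, and the 250 bases before each start were searched on both strands for 7 short motifs. The core of the PU.1 site, GAGGAA, bound by a transcription factor of the myeloid and B cell lineages, was present before 7 of the 14 starts, in the genes P2ry10, P2ry13, P2ry14 (4 starts) and Entpd1, where 1 site falls in the windows of 2 neighbouring P2ry14 starts and is counted in both. Of all 32851 promoter entries 23.3% hold it. The interferon regulatory factor core GAAANNGAA and the STAT element TTCNNNGAA were found before 0 of the 14 starts, against 7.13% and 7.02% of all entries. The core of the hypoxia element, ACGTG, was found before starts of P2ry10 and P2ry12 (16.6% of all entries), where the P2ry12 match reads the same on both strands and overlaps itself. AP-1 sites (TGANTCA) were found before 4 starts, GC boxes (GGGCGG) before 2 and the cyclic AMP element TGACGTCA before 0, against 6.75%, 32.7% and 1.55% of all entries. A match of letters is not a bound site, and no binding was measured here. The stretches before 1 start each of the 4 receptor genes with the highest fold differences, and of P2rx7, the member with a negative log2 fold change, follow, written 5′ to 3′ on the gene's strand, with GAGGAA and ACGTG on either strand in capitals. They cover chr3:59210883-59211132 for P2ry13, chr3:59262986-59263235 for P2ry12, chr3:59153493-59153742 for P2ry14, chrX:107089083-107089332 for P2ry10 and chr5:122643677-122643926 for P2rx7.
P2ry13: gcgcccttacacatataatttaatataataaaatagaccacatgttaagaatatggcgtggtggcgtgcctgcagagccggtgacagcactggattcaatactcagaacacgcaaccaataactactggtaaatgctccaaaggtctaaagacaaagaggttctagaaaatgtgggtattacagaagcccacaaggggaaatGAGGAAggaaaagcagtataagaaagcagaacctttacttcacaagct
P2ry12: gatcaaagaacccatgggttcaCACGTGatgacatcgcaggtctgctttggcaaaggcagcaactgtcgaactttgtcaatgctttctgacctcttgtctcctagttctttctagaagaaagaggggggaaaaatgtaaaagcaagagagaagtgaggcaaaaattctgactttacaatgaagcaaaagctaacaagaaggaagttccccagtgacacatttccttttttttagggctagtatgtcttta
P2ry14: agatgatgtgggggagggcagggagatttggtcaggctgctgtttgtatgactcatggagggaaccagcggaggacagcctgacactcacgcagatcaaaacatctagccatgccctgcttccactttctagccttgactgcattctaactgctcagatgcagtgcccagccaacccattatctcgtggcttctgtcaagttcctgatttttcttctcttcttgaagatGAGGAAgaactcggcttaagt
P2ry10: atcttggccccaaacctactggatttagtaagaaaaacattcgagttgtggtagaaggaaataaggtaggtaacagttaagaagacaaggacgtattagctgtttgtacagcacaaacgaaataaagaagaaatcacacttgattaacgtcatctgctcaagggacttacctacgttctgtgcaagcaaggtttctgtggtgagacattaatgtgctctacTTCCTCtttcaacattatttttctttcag
P2rx7: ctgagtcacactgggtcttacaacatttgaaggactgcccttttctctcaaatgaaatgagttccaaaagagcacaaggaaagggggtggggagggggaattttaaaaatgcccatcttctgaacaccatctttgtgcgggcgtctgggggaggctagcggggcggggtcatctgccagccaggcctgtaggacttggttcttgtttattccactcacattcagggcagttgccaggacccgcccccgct
The PU.1 core began 48 bases before the start of P2ry13, 21 before the start of P2ry14 shown and 29 before the start of P2ry10 shown, and the P2ry12 and P2rx7 stretches hold none. The second of the P2ry10 starts is shown because it holds the core, and the first has no such core but an ACGTG 138 bases before it.

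Libraries held 36220282 to 37707364 counts, so that 3 reads, the limit that a count of 0 allows, were worth 0.0758 to 0.0878 CPM (counts scaled to TMM-adjusted library size). Such limits cover counting error only. Nothing says that libraries of a group came from separate animals, so the spread between them may be technical. Bche, the manipulated gene, had 8, 26 and 14 counts under PBS and 1225, 582 and 3639 under DOX. Markers of the labelled cell type were present but not dominant: 14 stellate cell genes summed to 654 to 1471 CPM under PBS and 805 to 1275 under DOX, beside 6891 to 8347 and 5939 to 7011 CPM for 14 sinusoidal endothelial genes. Dcn alone gave 353 to 762 CPM of the stellate sums under PBS and 415 to 686 CPM under DOX. Lrat was scarce, at 1.12 to 3.51 and 1.97 to 3.04 CPM, as was Lhx2, at 1.41 to 5.71 and 3.57 to 4.42 CPM. The 12 hepatocyte genes summed to 152, 266 and 317 CPM under PBS and to 666, 230 and 2723 CPM under DOX, so that DOX replicate 3, which also had the most Bche counts, stood apart. All 12 had positive log2 fold changes (median 2.60) and 0 of them passed. Macrophage genes moved with the groups. The 16 on the list summed to 4577, 6774 and 4408 CPM for PBS replicates 1, 2 and 3 and to 14979, 8064 and 9248 CPM for DOX replicates 1, 2 and 3. None of the 16 was at 0 in all libraries of a group, and Cx3cr1 alone was too low to be tested. All 15 tested macrophage genes had a positive log2 fold change (median 1.27), and 2 of them, C1qb and C1qc, passed the threshold. In whole RNA of this kind a change in the number of cells of a type and a change of RNA per cell cannot be told apart.

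The P2X channel genes differed least between the groups, and both overlapped. P2rx4 encodes a channel that ATP opens at low concentration and that is abundant in lysosomes of macrophages. Its level was 207, 154 and 127 CPM for PBS replicates 1, 2 and 3 and 247, 184 and 214 CPM for DOX replicates 1, 2 and 3. The highest PBS library stood above the lowest DOX library, and the log2 fold change was 0.40 (SE 0.20). P2rx7 encodes the channel that needs high ATP and drives potassium efflux upstream of the NLRP3 inflammasome. Its level was 223, 186 and 140 CPM under PBS and 129, 152 and 135 CPM under DOX, again with overlap. P2rx7 was the only one of the 10 genes with a negative log2 fold change, -0.40 (SE 0.17). Although the neighbours P2rx4 and P2rx7 each overlapped between the groups, their ratio within a library did not. By deposited FPKM (counts scaled to gene length and library total), P2rx4 stood at 2.19, 1.96 and 2.14 times the level of P2rx7 for PBS replicates 1, 2 and 3 and at 4.54, 2.86 and 3.73 times for DOX replicates 1, 2 and 3. Which of these genes is the higher depends on the length used. The deposited FPKM rests on 2729 bases for P2rx4, where the exons of its 9 annotated transcripts together cover 7025 bases. Which length is nearer to the transcripts in these libraries was not tested. With annotated lengths the ratio was 0.789, 0.704 and 0.769 under PBS and 1.63, 1.03 and 1.34 under DOX, again with no overlap.

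The 5 P2Y genes were higher in all DOX libraries than in any PBS library, as were 16.9% of all genes tested. P2ry13 encodes a Gi-coupled ADP receptor of myeloid cells. Its counts were 190, 417 and 293 under PBS and 3998, 1826 and 1886 under DOX. This was 5.04, 10.9 and 7.40 CPM for PBS replicates 1, 2 and 3 and 117, 51.4 and 51.5 CPM for DOX replicates 1, 2 and 3. The lowest DOX library thus stood above the highest PBS library, and the log2 fold change was 3.23 (SE 0.43), or 9.41-fold.

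P2ry12 encodes a second Gi-coupled ADP receptor, the target of clopidogrel on platelets and a marker of microglia in the brain. It had 7, 15 and 5 counts under PBS and 172, 76 and 90 under DOX, or 0.186, 0.392 and 0.126 CPM against 5.03, 2.14 and 2.46 CPM. The log2 fold change was 3.76 (SE 0.55), the highest of the 10, from few reads under PBS. P2ry12 reached the CPM cutoff of the low-count filter in all 3 DOX libraries but in 1 PBS library, so it entered the fit through the group in which it was high. The other members reached that cutoff in all 6 libraries. The 8 platelet genes summed to 9.92 to 19.9 CPM under PBS and 17.3 to 18.2 CPM under DOX, above P2ry12 itself. Of these Pf4 reached 17.5 CPM and Itga2b 7.80 CPM, and neither passed, while the other 6 were too low to be tested, at no more than 0.382 CPM in any library. The part of platelets in the P2ry12 difference was not tested.

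P2ry14, the third gene of the cluster, encodes a receptor for UDP-glucose and other UDP-sugars. Its level was 11.7, 6.20 and 7.63 CPM for PBS replicates 1, 2 and 3 and 46.7, 20.5 and 23.7 CPM for DOX replicates 1, 2 and 3, a log2 fold change of 1.83 (SE 0.37). All 3 genes of the cluster were highest in DOX replicate 1, the library with the highest macrophage sum. Med12l, which spans them, had 18, 26 and 10 counts under PBS and 113, 46 and 33 under DOX (1.96 ± 0.60 SE as log2 fold change, edgeR quasi-likelihood adjusted p = 0.0921). Gpr171, a P2Y-like receptor gene 12034 bases from P2ry14, had 35, 9 and 5 counts under PBS and 132, 90 and 94 under DOX (2.79 ± 0.67 SE as log2 fold change, adjusted p = 0.0548 by edgeR). Neither passed the threshold of 0.05. The groups did not overlap for either, as was so for 16.9% of all genes tested in the higher direction. Gpr171 missed the filter cutoff of 0.270 CPM in PBS replicates 2 and 3, and Med12l missed it in PBS replicate 3. Both thus entered the fit through the group in which they were high, and no direction is read from them. Whether counting used the strand is not given in the sources used here, so reads of Med12l and of the genes nested in it may have been mixed. Counts of Med12l were below those of P2ry13 and P2ry14 in every library, and above those of P2ry12 in the 3 PBS libraries but below them in the 3 DOX libraries. Other leukocyte markers stand beside the cluster: 9 neutrophil genes summed to 27.4 to 59.6 CPM under PBS and 113 to 154 CPM under DOX, and 3 of the 5 tested rose (S100a8, S100a9 and Csf3r). Csf3r alone made up most of these sums, with 24.7 to 53.5 CPM under PBS and 85.9 to 144 CPM under DOX. Mmp8 and Ngp did not pass, and Retnlg, Camp, Cxcr2 and Ly6g were too low to be tested. Neutrophil Ly6g was at or below 0.109 CPM in every library. For 9 dendritic cell genes the sums were 587 to 808 and 848 to 923 CPM, and 3 of the 8 tested rose (Flt3, Siglech and Ccr7). Bst2, which did not pass, made up most of these sums with 491 to 685 and 695 to 728 CPM, and Clec9a and Zbtb46 had log2 fold changes of -0.34 and -0.20. The part of these cells in the differences was not tested.

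P2ry10 encodes a receptor of lymphocytes that responds to lysophosphatidylserine rather than to nucleotides. It had 45, 44 and 45 counts under PBS and 314, 250 and 213 under DOX. The PBS libraries were almost equal at 1.19, 1.15 and 1.14 CPM, and the DOX libraries held 9.19, 7.04 and 5.81 CPM, a log2 fold change of 2.66 (SE 0.24). Its paralog P2ry10b overlapped between the groups, at 5.46, 13.2 and 5.46 CPM under PBS and 14.4, 13.7 and 9.17 CPM under DOX (0.63 ± 0.38 SE as log2 fold change, adjusted p = 0.325 by edgeR). The FPKM of P2ry10b was 3.80, 9.55 and 3.98 times that of P2ry10 under PBS and 1.30, 1.62 and 1.31 times under DOX. T and NK cell genes, of which 12 of 13 were in the table, summed to 12.1, 7.67 and 4.02 CPM under PBS and 34.2, 19.5 and 26.8 CPM under DOX. Of these 11 were tested, all with positive log2 fold changes, and 3 passed (Cd4, Nkg7 and Gzma). Nkg7, Gzma, Cd3d, Cd3e, Cd3g, Cd8a, Cd8b1 and Ncr1 missed the filter cutoff of 0.270 CPM in some PBS but no DOX libraries. Such genes entered the fit through the group in which they were high, so no direction is read from these counts. B cell genes summed to 2.62 to 3.49 CPM under PBS and 2.99 to 6.36 CPM under DOX. The part of lymphocytes in the P2ry10 difference was not tested.

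P2ry6 encodes the UDP receptor, which couples to Gq and is known for triggering phagocytosis in microglia. Its level was 20.1, 23.0 and 18.8 CPM for PBS replicates 1, 2 and 3 and 37.4, 33.3 and 34.5 CPM for DOX replicates 1, 2 and 3. The difference was modest but the libraries of a group lay close together, with a log2 fold change of 0.76 (SE 0.11), or 1.70-fold. Its chromosome 7 neighbour P2ry2, the ATP and UTP receptor gene, overlapped between the groups at 21.1 ± 4.35 CPM under PBS and 20.6 ± 2.38 CPM under DOX (n = 3 each, SD, adjusted p = 0.915 by edgeR).

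**Figure D1:**
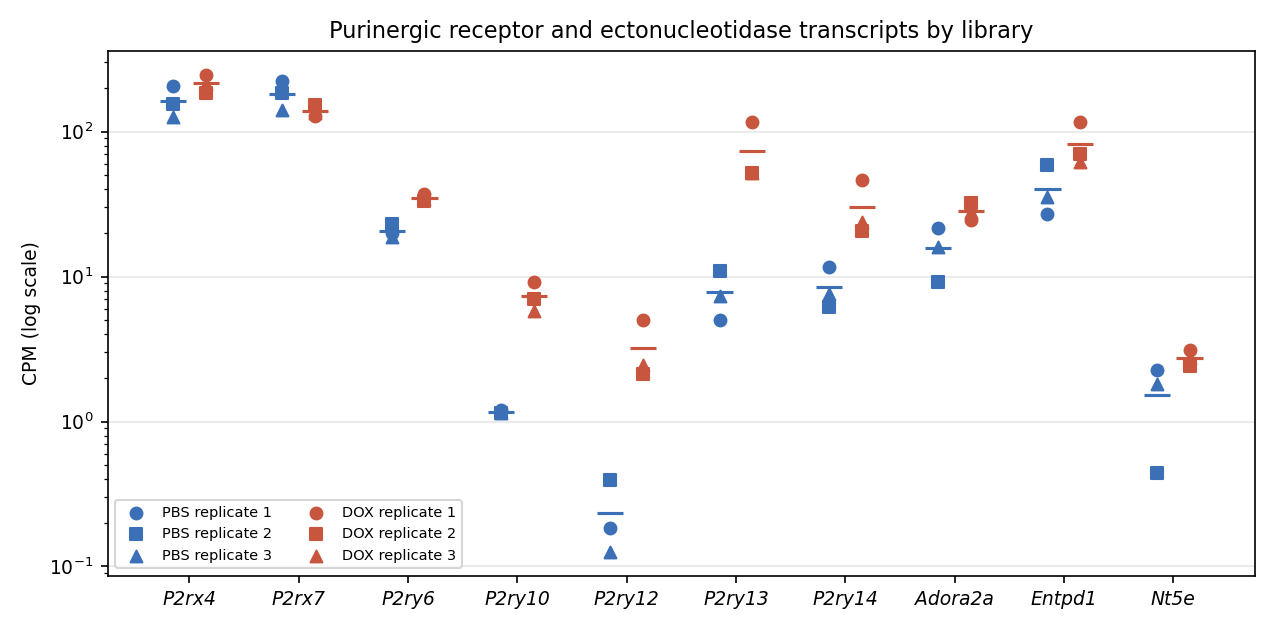
Level of each of the 10 genes in each library, in CPM on a log axis, with PBS libraries in blue, DOX libraries in red, a symbol for each replicate number and a line at each group mean (n = 3). The groups are apart for the 5 P2Y genes and, by less, for Adora2a, Entpd1 and Nt5e, and they overlap for P2rx4 and P2rx7.

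The adenosine receptor and the ectonucleotidases were higher under DOX by smaller factors than the P2Y genes of the chromosome 3 cluster. Adora2a encodes a Gs-coupled adenosine receptor, which dampens leukocyte activation. It stood at 21.6, 9.21 and 16.1 CPM under PBS and 24.5, 32.4 and 27.8 CPM under DOX, a log2 fold change of 0.85 (SE 0.29). The groups did not overlap, but PBS replicate 1 came close to DOX replicate 1. Adora2b, the gene of a low-affinity adenosine receptor, kept a like ratio to Adora2a, at 2.19 ± 0.334 times its FPKM under PBS and 2.15 ± 0.329 times under DOX (n = 3 each, SD).

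Entpd1 stood at 27.1, 58.5 and 35.4 CPM for PBS replicates 1, 2 and 3 and at 116, 70.2 and 61.5 CPM for DOX replicates 1, 2 and 3. DOX replicate 1 was well above the other libraries, DOX replicate 3 was close to PBS replicate 2, and the log2 fold change was 1.03 (SE 0.34). Nt5e was scarce, with 86, 17 and 72 counts under PBS and 107, 86 and 100 under DOX. This was 2.28, 0.445 and 1.82 CPM under PBS and 3.13, 2.42 and 2.73 CPM under DOX, a log2 fold change of 0.86 (SE 0.53) that was 0.43 without PBS replicate 2. By FPKM, transcripts of the ATP-degrading enzyme outnumbered those of the adenosine-forming one in every library, with 8.58, 94.8 and 14.04 times as much Entpd1 as Nt5e under PBS and 26.7, 20.9 and 16.3 times under DOX. PBS replicate 2, with its 17 Nt5e counts, sets the upper end of that range.

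Of the 10 genes, 8 had DOX libraries that all lay above all PBS libraries, where 16.9% of the 14439 genes tested did, and 0 had them all below, where 17.7% did. By the edgeR quasi-likelihood test, 5 of the 10 passed an adjusted p of 0.05 as higher under DOX and 0 as lower, while 4.38% of all genes tested passed as higher and 2.04% as lower. Since the genes were picked with this contrast known, nothing is read from these counts. The median log2 fold change of the 10 was 0.95, beside -0.01 over all genes tested. By library totals alone 45.6% of the calls over all genes were in the higher direction, against 68.3% with TMM, and the median log2 fold change was -0.14, while by limma on log2(FPKM + 1) 51.3% were. The direction of each member was the same in all 17 alternative settings. Without PBS replicate 2 or PBS replicate 3 no gene of the table passed (3294 and 3092 at an unadjusted p under 0.05), and without DOX replicate 1 just 2 of the 10 did. With each library left out in turn, the log2 fold change ranged from 2.73 to 3.56 for P2ry13, from 3.28 to 4.33 for P2ry12, from 2.47 to 2.80 for P2ry10, from 1.38 to 2.13 for P2ry14 and from 0.70 to 0.85 for P2ry6. It ranged from 0.71 to 1.40 for Entpd1, from 0.58 to 1.15 for Adora2a, from 0.43 to 1.28 for Nt5e, from 0.25 to 0.61 for P2rx4 and from -0.56 to -0.23 for P2rx7.

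By deposited FPKM, P2rx4 had the highest level of the 10 in both groups, at 62.1 ± 14.4 FPKM under PBS and 75.4 ± 10.4 FPKM under DOX (n = 3 each, SD). In PBS it was followed by P2rx7 at 29.6 ± 6.24 FPKM, with no overlap between these ranks or with the next. P2ry6 (8.58 FPKM), Entpd1 (8.51), Adora2a (5.51), P2ry14 (3.44) and P2ry13 (3.23) came next, each overlapping its neighbour in the order. Nt5e (0.439 FPKM) and P2ry10 (0.420) overlapped each other, and P2ry12 was last at 0.0916 FPKM. In DOX the level of P2ry13 was 27.5 ± 13.2 FPKM, second after P2rx4 and overlapping P2rx7 at 20.6 ± 1.98 FPKM. Entpd1, P2ry6, P2ry14 and Adora2a followed at 15.8, 13.3, 11.2 and 9.15 FPKM, each overlapping the next, then P2ry10 at 2.42 FPKM without overlap. P2ry12 (1.14 FPKM) and Nt5e (0.737) were last and overlapped.

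This order rests on the gene lengths behind the deposited FPKM, which are well below the annotated exonic lengths for P2rx4 (2729 against 7025 bases), P2ry14 (2571 against 11059) and Nt5e (3580 against 8602). The annotated length is the union of exons over all transcripts of a gene, so it can exceed the length of any single transcript. With annotated lengths, an alternative chosen after seeing the data, P2rx7 came first under PBS at 31.95 ± 6.75, overlapping P2rx4 at 24.1 ± 5.60 (n = 3 each, SD, in counts per length and library total). Under DOX P2rx4 (29.3 ± 4.06), P2ry13 (27.5 ± 13.2) and P2rx7 (22.3 ± 2.14) then led, each overlapping the next. P2ry14 ranked below Adora2a and P2ry13 in both groups on that scale, at 0.800 under PBS and 2.60 under DOX. The comparison of a gene between the groups does not involve its length.

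Set against the summed FPKM of 14 P2X and P2Y receptor genes of the table, 7 of the 14 shares did not overlap between the groups. By CPM, an unlike measure, 16.9% of all genes tested did not overlap as higher and 17.7% as lower. No such share exists for parts of a sum, so nothing is read from this count. P2ry12, P2ry13, P2ry14 and the scarce P2rx1 took higher shares under DOX, and P2rx7, P2ry1 and P2ry2 lower ones. P2rx4 held 56.6, 51.3 and 50.4% of the sum for PBS replicates 1, 2 and 3 and 45.6, 47.7 and 51.3% for DOX replicates 1, 2 and 3, so the groups overlapped. P2rx7 held 25.8, 26.2 and 23.6% under PBS and 10.04, 16.7 and 13.7% under DOX. P2ry13 held 1.49, 3.93 and 3.17% under PBS and 23.3, 14.4 and 13.3% under DOX. P2rx7 thus exceeded P2ry13 in all PBS libraries, and P2ry13 exceeded P2rx7 in DOX replicate 1 but in neither of the other two DOX libraries. P2ry14 held 2.93 ± 0.646% under PBS and 6.93 ± 1.91% under DOX, and P2ry12 at most 0.944% in any library. P2ry1 held 2.20 ± 0.675% under PBS and 0.799 ± 0.282% under DOX, and P2ry2 6.37 ± 2.30% and 4.21 ± 1.07%. With annotated lengths P2rx4 held 29.9 to 35.0% and 27.5 to 31.7%, P2rx7 39.0 to 44.4% and 16.9 to 27.4%, and P2ry13 2.36 to 5.89% and 21.2 to 36.2%, and of the 7 shares only that of P2ry2 then overlapped. Shares of a sum depend on one another, so a higher share of one gene lowers the others.

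**Figure D2:**
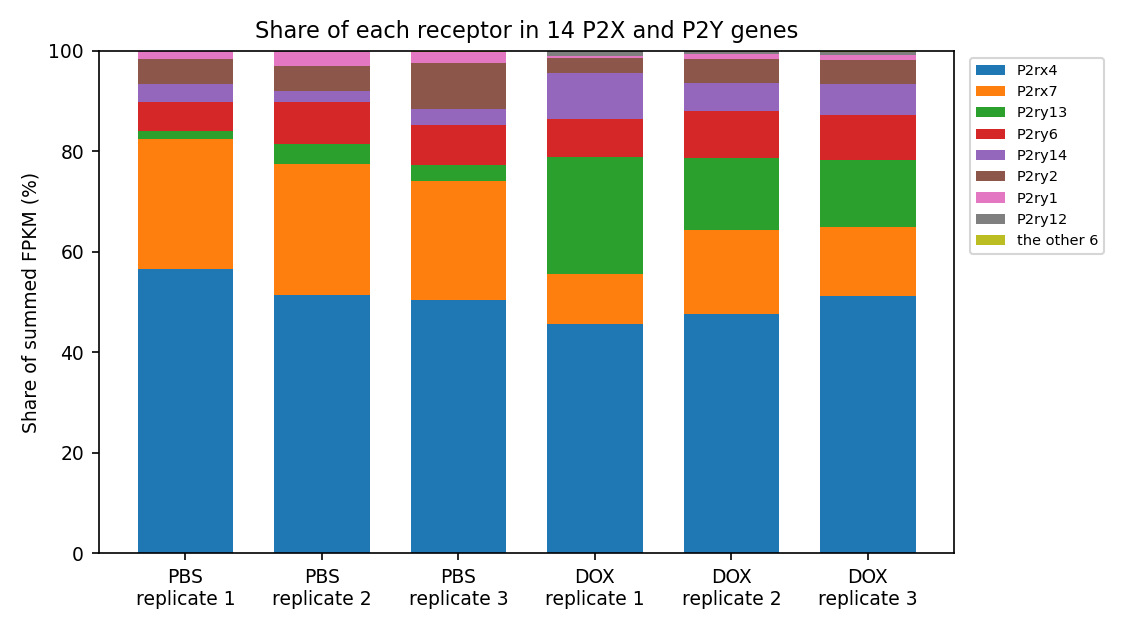
Share of each receptor gene in the summed deposited FPKM of 14 P2X and P2Y genes, in percent, as 1 stacked bar per library. The P2ry13 band is 1.49 to 3.93% under PBS and 13.3 to 23.3% under DOX, and the P2rx7 band is 23.6 to 26.2% under PBS and 10.04 to 16.7% under DOX.

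Because macrophage transcripts moved with the groups, each member was also expressed per 1000 CPM of the 16 summed macrophage genes. On that scale Entpd1 was alike in the groups, at 5.93, 8.64 and 8.03 under PBS and 7.74, 8.70 and 6.65 under DOX. P2ry6, P2ry14, Adora2a, Nt5e and P2rx4 overlapped as well. P2ry13 did not overlap, at 1.10, 1.61 and 1.68 for PBS replicates 1, 2 and 3 and 7.81, 6.38 and 5.56 for DOX replicates 1, 2 and 3, a ratio of means of 4.50. P2ry12 was at 0.0286 to 0.0579 under PBS and 0.265 to 0.336 under DOX, a ratio of 6.82, and P2ry10 at 0.170 to 0.261 and 0.613 to 0.873, a ratio of 3.07. P2rx7 ran the other way, at 48.8, 27.4 and 31.8 under PBS and 8.59, 18.9 and 14.6 under DOX, 2.56-fold lower. Against each of the 15 tested macrophage genes singly, DOX stood above PBS with no overlap for 14 of the 15 with P2ry12, 12 with P2ry13, 8 with P2ry10 and 4 with P2ry14. It stood below with no overlap for 14 of the 15 with P2rx7, 10 with P2rx4, 3 with P2ry6 and 2 with Entpd1. Per 1000 CPM of the 14 summed endothelial genes, P2rx7 overlapped (1.15-fold lower) as P2rx4 did, and the other 8 members were higher under DOX with no overlap, from 1.99-fold for P2ry6 to 15.9-fold for P2ry12. These endothelial genes themselves leaned lower under DOX (median log2 fold change -0.35, 3 of 14 positive, Tek and Ptprb called lower), and a smaller sum raises every ratio. For neither marker scale was the share of all genes without overlap computed, so nothing is read from these counts. The ratios thus depend on the genes chosen as markers, and the part of macrophage number in the members' differences was not tested.

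**Figure D3:**
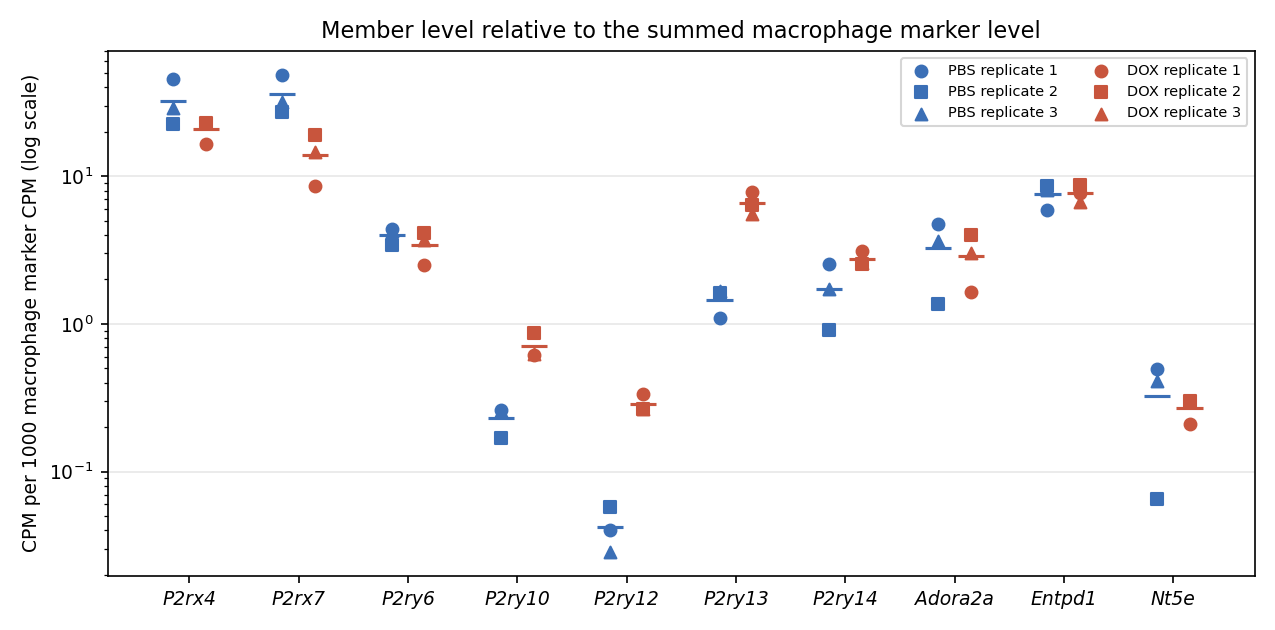
Each gene's CPM per 1000 CPM of the 16 summed macrophage genes, on a log axis, with symbols as for the plot of CPM by library and a line at each group mean (n = 3). P2ry10, P2ry12 and P2ry13 lie higher and P2rx7 lower under DOX with no overlap, and Entpd1 lies at 5.93 to 8.64 under PBS and 6.65 to 8.70 under DOX.

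Other genes of the pathway, taken from lists made by function but with earlier results of these data known, were tested in the same fit. Of 83 such genes 79 were in the table and 60 passed the low-count filter. Of these 60, 9 were higher and 1 lower under DOX at an edgeR adjusted p of 0.05. Over all genes tested, 4.38% passed as higher and 2.04% as lower. The inflammasome genes described below gave 5 of the 9, and nothing is read from these counts. The median log2 fold change of the 60 was 0.30. Among genes for handling nucleosides 2 of 8 tested rose and 0 fell. Slc28a2 encodes CNT2, the sodium-coupled transporter that takes up adenosine and other purine nucleosides. It rose from 43.3, 52.8 and 36.3 CPM for PBS replicates 1, 2 and 3 to 372, 244 and 174 CPM for DOX replicates 1, 2 and 3 (2.58 ± 0.29 SE as log2 fold change, adjusted p = 0.0200 by edgeR). Pnp, the purine nucleoside phosphorylase that splits inosine and guanosine, rose 2.21-fold from 384 ± 93.2 to 848 ± 149 CPM (n = 3 each, SD, adjusted p = 0.0311 by edgeR). The equilibrative transporter gene Slc29a1 and the deaminase gene Ada did not pass, at log2 fold changes of 0.09 and 0.14 (adjusted p = 0.605 and 0.545 by edgeR). Among genes for ATP release, Calhm2, of a family of large-pore channels, rose 2.42-fold from 10.7 ± 1.004 to 26.0 ± 6.12 CPM (n = 3 each, SD, adjusted p = 0.0240 by edgeR) and was the 1 of 5 that passed.

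Of 6 further P2Y or P2Y-like receptor genes tested, Gpr183 passed. It encodes EBI2, an oxysterol receptor that guides lymphocytes and dendritic cells, and it rose from 1.31 ± 0.653 to 4.36 ± 0.0310 CPM (n = 3 each, SD, adjusted p = 0.0408 by edgeR). With each library left out in turn, Gpr183 kept the call only without PBS replicate 1. P2ry1, the Gq-coupled ADP receptor gene, lay on the other side. It had 7.85, 12.2 and 8.16 CPM under PBS and 3.69, 5.10 and 5.95 CPM under DOX with no overlap, and it missed the threshold (-0.94 ± 0.26 SE as log2 fold change, adjusted p = 0.0748 by edgeR). Of the adenosine receptor genes outside the set, Adora2b had 20.7 ± 5.95 CPM under PBS and 37.5 ± 2.23 CPM under DOX (n = 3 each, SD, adjusted p = 0.0592 by edgeR) and Adora1 overlapped (adjusted p = 0.716 by edgeR). Of these 2 genes edgeR called 0 (1 at an unadjusted p under 0.05), DESeq2 1 and limma-voom 0. The further P2X genes P2rx1, P2rx2, P2rx3, P2rx5 and P2rx6 were all too low to be tested.

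Of 11 other ectonucleotidase genes tested, edgeR called 0 (2 at an unadjusted p under 0.05), limma-voom 0 and DESeq2 1. The lowest p belonged to Enpp4, a phosphodiesterase gene, with 120 ± 28.0 CPM under PBS and 214 ± 53.9 CPM under DOX (n = 3 each, SD, adjusted p = 0.0779 by edgeR), and to Acpp, an acid phosphatase gene, with a log2 fold change of 1.44 (SE 0.50 and adjusted p = 0.115 by edgeR). Downstream of the receptors, Gna12, a G alpha subunit gene, fell from 150 ± 8.71 to 91.2 ± 13.6 CPM (n = 3 each, SD, -0.72 ± 0.12 SE as log2 fold change, adjusted p = 0.0290 by edgeR) and was the 1 of 11 G alpha genes that passed. Gnai2, the main Gi subunit gene of leukocytes, had a log2 fold change of 0.39 (SE 0.11 and adjusted p = 0.0790 by edgeR), and Gnas, the Gs subunit gene, 0.17 (SE 0.10 and adjusted p = 0.298 by edgeR). The Gi subunit gene Gnai1 lay on the other side with no overlap, at -0.64 (SE 0.18 and adjusted p = 0.0745 by edgeR). Gnai3 overlapped between the groups, at 0.19 (adjusted p = 0.302 by edgeR), so the Gi genes had no common direction. Of 8 adenylyl cyclase genes, edgeR, DESeq2 and limma-voom called 0, with 0 at an unadjusted p under 0.05. Adcy7 and Adcy9 had the lowest p, at log2 fold changes of 0.37 and -0.35 (adjusted p = 0.192 and 0.259 by edgeR).

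P2rx7, whose channel activates the inflammasome, had a log2 fold change of -0.40 with overlap between the groups. The 9 inflammasome genes on the list had log2 fold changes from 0.01 (Nek7) to 2.60 (Il1b). Of these 5 passed as higher, where 4.38% of all genes tested did. This list was drawn up with the Il1b and Il18 results known and is no independent evidence of a direction. The sensor gene Nlrp3 rose 2.72-fold from 44.4 ± 3.22 to 121 ± 35.9 CPM (n = 3 each, SD, adjusted p = 0.0256 by edgeR) and the protease genes Casp1 and Casp4 rose 2.09-fold and 1.70-fold (adjusted p = 0.0258 and 0.0371 by edgeR). The cytokine genes Il1b and Il18 rose 6.04-fold and 5.30-fold (adjusted p = 0.0200 for both by edgeR). The macrophage sums of 4408 to 6774 CPM under PBS and 8064 to 14979 CPM under DOX stand beside all of these pathway genes, and their part was not tested. Of the 10 pathway genes that passed, all lost the call without PBS replicate 2 or PBS replicate 3, 4 passed without DOX replicate 1 and 6 without DOX replicate 2. Without DOX replicate 3, 9 of them passed and Gpr183 did not (adjusted p = 0.0609 by edgeR).

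**Figure D4:**
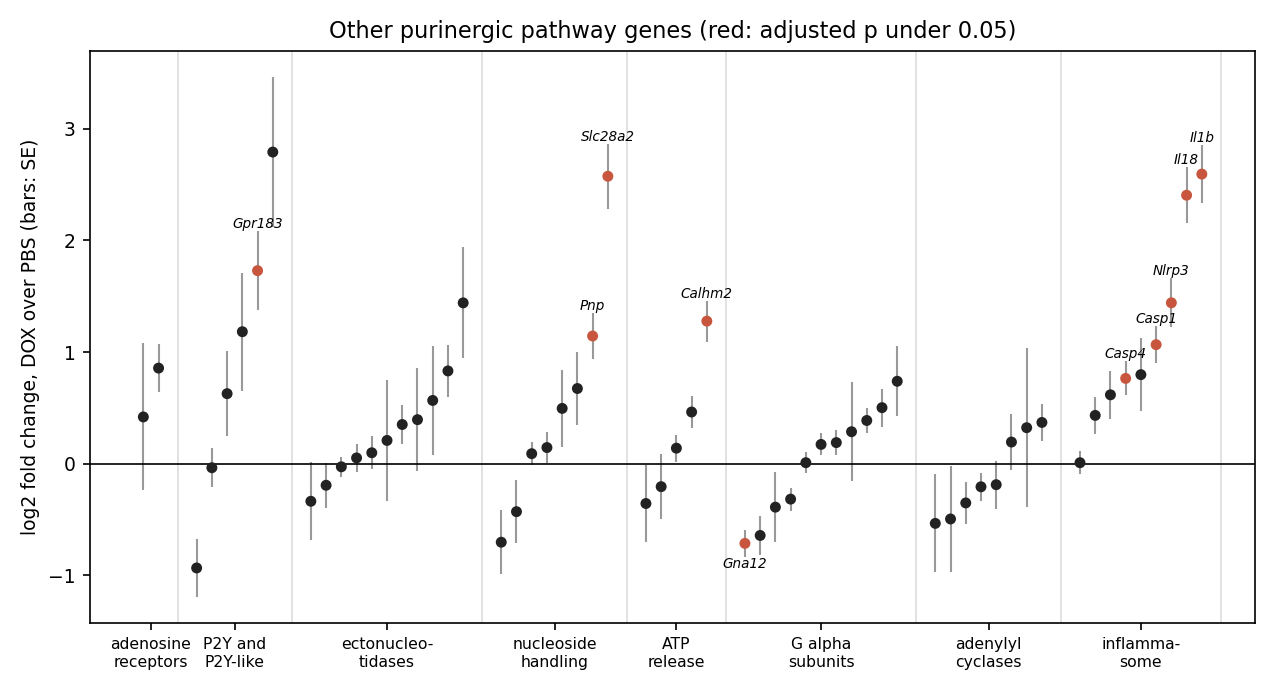
Log2 fold change of DOX over PBS with its SE (bars) for the 60 tested pathway genes outside the set, by list, with the 10 that passed an edgeR adjusted p of 0.05 in red and named. Slc28a2 and Gna12 are at 2.58 and -0.72, and the lowest inflammasome gene, Nek7, is at 0.01.

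The genes whose patterns over the 6 libraries were most like those of the members were sought among 9758 other genes with a mean of at least 5 CPM. Likeness was the root-mean-square difference of log2 CPM profiles, each centred on its own mean, so 0 is an identical pattern. The measure grows with a member's own spread, so its size is not compared between members. For P2rx4 the nearest were Ctsz, a lysosomal cathepsin gene, and Cyba, a subunit gene of the phagocyte NADPH oxidase (0.047 and 0.053). For P2ry6 they were Stard5 and Rab32 (0.052 and 0.065), and for P2rx7 Fnip2 and Adam15 (0.068 and 0.089). For Entpd1 they were Adgb and Adgre1, the gene of the macrophage antigen F4/80 (0.113 and 0.123). For Adora2a the nearest was Ptges, the prostaglandin E synthase gene (0.079), followed by Isg20 (0.173). P2ry14 was nearest to Plac8 and Aldh1b1 (0.132 and 0.136), and Nt5e to Lratd1 and S1pr3 (0.165 and 0.257). P2ry10 was nearest to the cytokine gene Il10 (0.180) and then to Slc28a2 (0.201), P2ry13 to Ms4a8a and the formyl peptide receptor gene Fpr1 (0.194 and 0.258), and P2ry12 to Gvin3 and Klrk1 (0.304 and 0.310). Among the members themselves the nearest pairs were P2rx4 with P2ry6 (0.278) and P2ry12 with P2ry13 (0.338), while the neighbours P2rx4 and P2rx7 were at 0.447. All of these profiles share the same 6 libraries and 2 groups, so any genes that differ between the groups in like measure score as alike.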

How the data were processed

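RNA-seq of 3 PBS and 3 DOX libraries was analysed, grouped and numbered by sample title. The authors deposited raw counts for 22905 gene symbols, 1 column per library, and FPKM values for the same genes. The deposited FPKM equalled the counts per gene length and library total in 100% of values compared (tolerance 0.0001). The submitters' processing notes name the builds GRCm38, mm10 and hg38 with no role. The aligner, counting tool, strand setting and treatment of reads matching several genes were not given in the sources used here. Per the labels' protocols, an RNeasy kit gave the RNA and a SMARTER kit the libraries.

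Groups were compared across all genes by edgeR 4.0.16 (R 4.3.3, quasi-likelihood) with TMM scaling, a single group term and filterByExpr defaults (minimum count 10), leaving 14439 genes. Tests were two-sided with Benjamini-Hochberg adjustment over all of them and a threshold of 0.05. CPM values use TMM-scaled library sizes, and values after ± are SDs of 3 libraries unless named SE. An SE was derived from its F statistic. The code was tested on simulated data. Replicates of a group differed by more than sampling noise (chi-square per degree of freedom 38.6 to 82.1). Log2 CPM values used a prior count of 2. Gene spans came from GENCODE M21 and promoters from RefSeq (GRCm38.p6).

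The members, the lists and the markers were chosen with earlier results of these data known. Named were all members, pathway genes past the threshold (or the 2 with the lowest p in a list with none), overlapping and neighbouring genes, and the 2 nearest patterns per member. Slc29a1, Ada, Gnai1, Gnai2, Gnai3 and Gnas were named outside that rule, after their values were seen. Alternatives were RLE, upper-quartile and no scaling factors, no low-count filter, 1 CPM in 3 libraries, DESeq2 1.42.0, limma-voom (limma 3.58.1), a robust fit, a block for the replicate number, limma on FPKM as log2(FPKM + 1) or with 0.1 in place of 1, and leaving out each library. Annotated exon lengths in place of those behind the FPKM were added after the data were seen.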

Additional observations from a re-analysis of the deposited data

How the results depend on the processing

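Over the table, edgeR called 926 genes, DESeq2 2692, and leaving out a library gave 0 to 1090. Calls higher in DOX numbered 632, with 1677 by DESeq2 and 0 to 722 with a library left out. Of the pathway genes outside the set 10 were called, 19 by DESeq2 and 0 to 12 with a library left out. Of the 10 members 5 passed, and 0 to 5 with a library left out. Without PBS replicate 2 the smallest edgeR adjusted p over all genes was 0.0663, and without PBS replicate 3 it was 0.0634. With the replicate number as a block (a replicate block), 781 genes, 11 pathway genes and 5 members passed. Correlations of deviations between same-numbered libraries were 0.0949, -0.106 and 0.232, against -0.230 to 0.140 between PBS and DOX libraries of unlike number. With 3 libraries in a group, these values cannot decide whether the numbers pair libraries. Calls lower in DOX numbered 294, with 159 under the block, 1015 by DESeq2, 730 by library totals alone and 0 to 368 with a library left out. By limma on log2(FPKM + 1), which understates low genes, the log2 fold change of P2ry12 was 0.94 and that of P2ry10 was 1.26. No member changed sign in any of the 17 settings. With annotated exon lengths (chosen after seeing the data), the mean P2rx4 to P2rx7 ratio was 0.754 in place of 2.10 under PBS and 1.33 in place of 3.71 under DOX, and Entpd1 to Nt5e was 83.7 in place of 39.1 and 45.5 in place of 21.3. P2ry12 and Nt5e, at under 5 CPM in most libraries, are the members that depth limits most.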
